A study of Mus musculus with 800 samples.

Results

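The 10 genes described here encode enzymes of glycolysis and of the lactate step that follows it: Hk1, Pfkp, Aldoa, Aldoc, Gapdh, Eno1, Eno2, Pkm, Ldha and Ldhb. They were taken as the rows of the count table whose Ensembl gene identifiers carry these symbols, which gave 11 rows for 10 genes among 32285 genes in all. The second row, another Aldoa identifier with 39 reads, was not added to the first. The rule uses gene names and no measured value.

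The study profiled single nuclei of C57Bl/6J mouse brain that had been sorted for yellow fluorescence. Each mouse had received an adeno-associated virus with the PHP.eB capsid, which crosses into the brain from the blood, carrying an enhancer or promoter that drives a histone H2B-SYFP2 fusion, a fluorescent protein kept in the nucleus. The dose was 5e11 vector genomes per mouse, given in young adulthood, and nuclei were taken 3 to 4 weeks later. The 20 vectors, with 40 nuclei each, were AiE0078h, AiE0140h, AiE0387m, AiE0390m, AiE0391h, AiE0401h, AiE0410m, AiE0445h_3xC2, AiE0447h, AiE0450h, AiE0452h, AiE0475m, AiE0600m, AiE0682h, AiE0743m_3xC2, AiE0779m, CMV, DLX2.0, hI56i and hSyn1. All 800 nuclei were sorted positive and all carry the label anterior lateral motor cortex, and nuclei without a vector were not analysed here. The labels name no animal, so p-values below measure the spread between vectors, and how many mice stand behind it is not known. The vector and the sort decide which nuclei of a class are present.

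Glycolysis splits glucose into pyruvate in the cytosol, and lactate dehydrogenase interconverts pyruvate and lactate. Several steps have more than one isozyme, encoded by separate genes that are used to different extents in different cells. In brain, aldolase C is a classical astrocyte protein and gamma enolase a classical neuronal one, and astrocytes and oligodendrocytes are widely described as releasing lactate that neurons can take up.

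The 10 genes lie on 7 chromosomes of mm10 and all are annotated as protein coding in GENCODE M21. Hk1 is at chr10:62268855-62379908 on the minus strand, Pfkp at chr13:6579768-6648777 on the minus strand, Aldoa at chr7:126795234-126800751 on the minus strand and Aldoc at chr11:78322968-78327781 on the plus strand. Gapdh is at chr6:125161715-125166467 on the minus strand, Eno1 at chr4:150236721-150248879 on the plus strand and Eno2 at chr6:124760053-124769673 on the minus strand. Pkm is at chr9:59656368-59679375 on the plus strand, Ldha at chr7:46841475-46855627 on the plus strand and Ldhb at chr6:142490249-142507957 on the minus strand. The sources used here do not say how reads shared with near-identical copies were counted. The Eno1 copy Eno1b held 1390 reads, 2.13% of the 65296 of Eno1. Gapdh has many processed copies in the mouse genome, whose reads were not counted here. Both levels are uncertain for this reason, by an amount that is not known.

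A promoter of each isozyme of the aldolase, enolase and lactate dehydrogenase pairs is shown so that the pairs can be set side by side. Each is 300 bases, from 250 before to 50 after a RefSeq start, on build GRCm38.p6, 5′ to 3′ on the gene's own strand, with capitals for the Sp-type box GGGCGG and for ACGTG, a core of hypoxia response elements, on either strand. ACGTG also lies inside CACGTG, one form of the E-box. The first Aldoc start is at chr11:78322823-78323122 on the plus strand, the second Aldoa start at chr7:126799205-126799504 on the minus strand, the first Ldha start at chr7:46845554-46845853 on the plus strand, Ldhb at chr6:142507908-142508207 on the minus strand, the second Eno1 start at chr4:150236947-150237246 on the plus strand and Eno2 at chr6:124769624-124769923 on the minus strand.

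Aldoc: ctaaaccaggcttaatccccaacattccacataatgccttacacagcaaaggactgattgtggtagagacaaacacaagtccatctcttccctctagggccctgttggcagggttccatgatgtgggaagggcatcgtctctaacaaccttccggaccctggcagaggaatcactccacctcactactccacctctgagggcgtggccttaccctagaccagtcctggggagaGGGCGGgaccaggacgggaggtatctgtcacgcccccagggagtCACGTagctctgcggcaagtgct

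Aldoa: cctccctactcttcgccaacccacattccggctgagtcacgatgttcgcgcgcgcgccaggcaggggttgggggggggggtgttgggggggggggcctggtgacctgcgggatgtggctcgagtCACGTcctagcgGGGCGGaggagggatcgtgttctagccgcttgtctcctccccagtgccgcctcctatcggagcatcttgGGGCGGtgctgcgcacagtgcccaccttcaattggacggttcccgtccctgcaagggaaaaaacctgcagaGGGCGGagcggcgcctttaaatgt

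Ldha: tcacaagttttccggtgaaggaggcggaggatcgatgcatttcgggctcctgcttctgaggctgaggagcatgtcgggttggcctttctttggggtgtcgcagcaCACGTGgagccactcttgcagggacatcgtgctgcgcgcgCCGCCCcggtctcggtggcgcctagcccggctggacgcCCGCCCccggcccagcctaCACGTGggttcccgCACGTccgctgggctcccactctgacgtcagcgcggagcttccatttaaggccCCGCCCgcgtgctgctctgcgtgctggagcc

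Ldhb: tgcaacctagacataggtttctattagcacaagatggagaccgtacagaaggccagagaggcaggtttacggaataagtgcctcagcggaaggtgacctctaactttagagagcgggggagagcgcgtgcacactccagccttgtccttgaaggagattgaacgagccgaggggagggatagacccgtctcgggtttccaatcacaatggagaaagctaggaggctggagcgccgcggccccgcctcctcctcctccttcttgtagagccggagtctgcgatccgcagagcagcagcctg

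Eno1: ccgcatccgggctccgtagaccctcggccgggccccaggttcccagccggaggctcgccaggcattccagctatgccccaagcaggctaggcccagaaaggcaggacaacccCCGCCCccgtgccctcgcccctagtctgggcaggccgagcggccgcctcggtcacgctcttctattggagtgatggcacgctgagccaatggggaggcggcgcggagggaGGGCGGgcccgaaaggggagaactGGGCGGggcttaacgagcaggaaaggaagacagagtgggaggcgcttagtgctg

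Eno2: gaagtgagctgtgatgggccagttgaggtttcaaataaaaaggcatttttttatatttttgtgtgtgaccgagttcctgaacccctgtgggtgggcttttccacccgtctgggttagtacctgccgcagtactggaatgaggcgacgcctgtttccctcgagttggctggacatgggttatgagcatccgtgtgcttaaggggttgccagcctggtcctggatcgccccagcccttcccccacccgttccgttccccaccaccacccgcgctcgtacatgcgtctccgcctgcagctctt

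The Ldha promoter shown held 3 GGGCGG, 2 CACGTG and 5 ACGTG matches, while those of Ldhb and Eno2 held none of the motifs. Each CACGTG of Ldha reads as ACGTG on both strands and so counts as 2 of the 5 ACGTG matches. The Aldoa promoter shown held 3 GGGCGG and 1 ACGTG match, that of Aldoc 1 of each, and that of Eno1 3 GGGCGG and no other match. RefSeq lists further starts: the second of Ldha, the second of Aldoc, the first of Aldoa and the first of Eno1 held no match, and the third of Aldoa and the third of Eno1, which overlap those shown, held the same counts as those. The starts shown of genes with several were chosen with the matches known. Over 32851 promoters of the same length, 35.7% held GGGCGG, 7.15% CACGTG and 19.6% ACGTG. A match is a run of letters, not a shown binding site.

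Of the 800 nuclei, 698 had at least 1000 detected genes and were sorted into classes by markers, with the 10 enzymes and all other carbohydrate genes described below kept out of the clustering. They fell into 106 astrocyte-like, 50 oligodendrocyte-like, 161 striatal projection neuron-like, 273 GABAergic-like and 108 glutamatergic-like nuclei. The striatal class goes against the cortical label that every nucleus carries, while the series' design text names striatum among the regions sorted: the genes that led its cluster included the striatal markers Rgs9, Penk and Pde10a. The 10 astrocyte markers summed to 18220 CPM (a gene's counts per 1000000 counts in all genes) in astrocyte-like nuclei and to 176 to 538 CPM in the neuronal classes. The 9 oligodendrocyte markers summed to 48240 CPM in oligodendrocyte-like nuclei, 2061 CPM in astrocyte-like and 1343 CPM in striatal projection neuron-like nuclei. A median nucleus had 300958.5 counts and 1454 genes in the astrocyte-like class and 297629 counts and 1139.5 genes in the oligodendrocyte-like class, against 241227 to 254316 counts and 2652 to 3264.5 genes in the neuronal classes. Nuclei with neighbouring numbers in their sample titles also resembled each other. Within runs of 8 consecutive nuclei of a vector, 67.8% of pairs shared a class, against 35.4% of pairs in different runs of a vector. The labels do not say what these numbers stand for. The part that runs and the number of genes per nucleus play in the results below was not tested, except where a value is given.

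Levels are CPM summed over the nuclei of a class within a vector, for vectors with at least 3 such nuclei: 9 vectors for astrocyte-like, 7 for oligodendrocyte-like, 14 for striatal projection neuron-like, 18 for GABAergic-like and 12 for glutamatergic-like nuclei. Pooled instead over all nuclei of a class, the 10 enzymes together made 7291 CPM in astrocyte-like nuclei, where Aldoc alone was 3692 CPM. They made 2557 CPM in oligodendrocyte-like, 3067 CPM in striatal projection neuron-like, 3657 CPM in GABAergic-like and 2351 CPM in glutamatergic-like nuclei. Levels per exonic kilobase below are pooled in the same way. Fewer reads of a gene in a class can mean less RNA per nucleus or fewer nuclei with any, and the share of nuclei with a read is given for that reason.

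**Figure D1:**
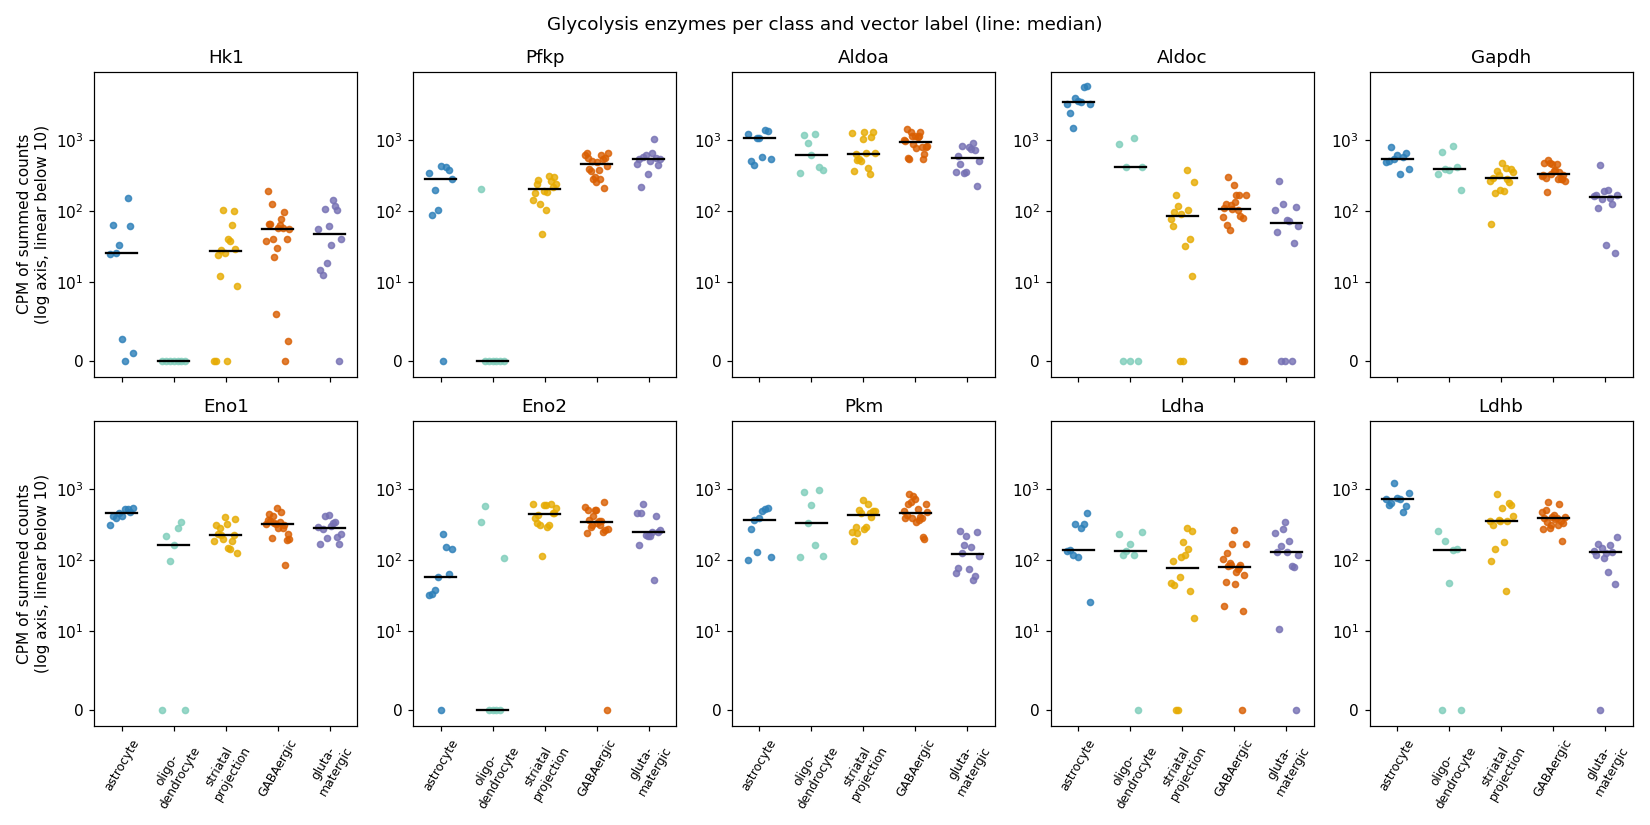
Level of each enzyme (CPM of summed counts, log axis that is linear below 10) in each class, one point per vector label and a line at the median. Aldoc is at 1444 CPM or more in all 9 astrocyte-like sums, while Hk1 is at 0 in all 7 oligodendrocyte-like sums.

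Hk1, the main hexokinase of brain, traps glucose as glucose 6-phosphate. Per exonic kilobase it had the lowest level of the 10 enzymes in each of the 5 classes. Its median over vectors was 25.5 CPM in astrocyte-like sums (0 to 153), 0 in oligodendrocyte-like sums (all 7 at 0), 26.9 CPM in striatal projection neuron-like (0 to 102), 56.0 CPM in GABAergic-like (0 to 190) and 47.5 CPM in glutamatergic-like sums (0 to 141). A read was found in 17.9% of astrocyte-like, 18.6% of striatal projection neuron-like, 30.04% of GABAergic-like and 33.3% of glutamatergic-like nuclei. None of 50 oligodendrocyte-like nuclei had one, which allows a share of up to 6% by a floor of 3 nuclei and of up to 7.11% by the exact 95% interval. The reads of a nucleus are not independent molecules, so no bound on a fold is given for a class at 0. The ranges of the other classes overlapped widely, and each began at 0, the value of all oligodendrocyte-like sums.

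Phosphofructokinase, the main regulated step, is represented by the platelet isozyme Pfkp. Its median was 278 CPM in astrocyte-like sums (0 to 422), 0 in oligodendrocyte-like (0 to 206), 204 CPM in striatal projection neuron-like (47.6 to 313), 458 CPM in GABAergic-like (208 to 659) and 533 CPM in glutamatergic-like sums (213 to 1025). A single oligodendrocyte-like nucleus held all 204 Pfkp reads of that class. The GABAergic-like and glutamatergic-like ranges overlapped, and so did those of the astrocyte-like and striatal projection neuron-like classes.

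Aldolase cleaves fructose 1,6-bisphosphate. Aldoa, the ubiquitous isozyme, was high everywhere, with medians of 1045 CPM in astrocyte-like sums (441 to 1374), 604 CPM in oligodendrocyte-like (342 to 1209), 639 CPM in striatal projection neuron-like (330 to 1275), 917 CPM in GABAergic-like (538 to 1416) and 550 CPM in glutamatergic-like sums (221 to 898). Its 5 ranges overlapped. Aldoc was different: its median was 3414 CPM in astrocyte-like sums (1444 to 5643), 408 CPM in oligodendrocyte-like (0 to 1044), 83.7 CPM in striatal projection neuron-like (0 to 377), 107 CPM in GABAergic-like (0 to 304) and 67.0 CPM in glutamatergic-like sums (0 to 261). The lowest astrocyte-like sum lay above the highest of every other class. A read was found in 97.2% of astrocyte-like and 22% of oligodendrocyte-like nuclei, against 17.3% of neuronal-like nuclei. Levels per exonic kilobase divide by the length of all annotated exons of a gene. They compare genes only roughly, since the RNA present may hold fewer of these exons. On that scale Aldoc reached 1131 CPM per kb in astrocyte-like nuclei and Aldoa 336 CPM per kb. In neuronal-like nuclei Aldoc was at 31.99 and Aldoa at 296 CPM per kb.

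Glyceraldehyde 3-phosphate dehydrogenase makes the first NADH of the pathway. Gapdh had medians of 534 CPM in astrocyte-like sums (327 to 801), 382 CPM in oligodendrocyte-like (197 to 815), 286 CPM in striatal projection neuron-like (64.2 to 469), 326 CPM in GABAergic-like (183 to 519) and 157 CPM in glutamatergic-like sums (25.9 to 440). The glutamatergic-like class was the lowest and all neighbouring ranges overlapped.

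Enolase makes phosphoenolpyruvate. Eno1, the widely expressed isozyme, had medians of 456 CPM in astrocyte-like sums (305 to 530), 160 CPM in oligodendrocyte-like (0 to 344), 226 CPM in striatal projection neuron-like (126 to 399), 318 CPM in GABAergic-like (85.2 to 531) and 280 CPM in glutamatergic-like sums (166 to 427). Eno2, known as neuron-specific enolase, had medians of 56.9 CPM in astrocyte-like sums (0 to 230), 0 in oligodendrocyte-like (0 to 575), 447 CPM in striatal projection neuron-like (113 to 616), 341 CPM in GABAergic-like (0 to 661) and 249 CPM in glutamatergic-like sums (52.2 to 608). A read of Eno2 was found in 21.7% of astrocyte-like and 6.0% of oligodendrocyte-like nuclei, against 69.4% of neuronal-like nuclei.

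Pyruvate kinase makes pyruvate. Pkm had medians of 360 CPM in astrocyte-like sums (99.8 to 539), 329 CPM in oligodendrocyte-like (111 to 949), 427 CPM in striatal projection neuron-like (186 to 689), 456 CPM in GABAergic-like (196 to 850) and 120 CPM in glutamatergic-like sums (52.2 to 255). Gene counts do not separate its splice forms.

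Lactate dehydrogenase joins pyruvate and lactate. Ldha, the muscle-type subunit, had medians of 138 CPM in astrocyte-like sums (25.4 to 455), 134 CPM in oligodendrocyte-like (0 to 244), 77.5 CPM in striatal projection neuron-like (0 to 283), 80.3 CPM in GABAergic-like (0 to 266) and 128 CPM in glutamatergic-like sums (0 to 346). Ldhb, the heart-type subunit, had medians of 709 CPM in astrocyte-like sums (468 to 1195), 137 CPM in oligodendrocyte-like (0 to 253), 357 CPM in striatal projection neuron-like (37.1 to 843), 382 CPM in GABAergic-like (187 to 662) and 128 CPM in glutamatergic-like sums (0 to 211). The astrocyte-like range lay above the oligodendrocyte-like and glutamatergic-like ranges. Per exonic kilobase, Ldhb exceeded Ldha in every class, at 467 and 64.3 CPM per kb in astrocyte-like nuclei and at 86.9 and 39.8 CPM per kb in glutamatergic-like nuclei. The annotated exons that this divides by span 1570 bases for Ldhb and 3310 for Ldha. Before that scaling, Ldhb and Ldha were at 126 and 133 CPM in oligodendrocyte-like and at 137 and 132 CPM in glutamatergic-like nuclei.

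Astrocyte-like nuclei were then compared with the neuronal-like nuclei, all 3 neuronal classes together, within the 9 vectors that held both. Aldoc and Ldhb were higher and Eno2 lower in astrocyte-like nuclei than in neuronal-like nuclei. Over all 10074 genes tested 17.6% were called, 3.88% as higher and 13.7% as lower, and the typical gene was lower: the median log2 fold change was 0.50 for the 10 enzymes and -1.82 over every gene tested. Each vector's sums were compared with edgeR's quasi-likelihood test with the vector as a block, Benjamini-Hochberg adjustment over all genes and a threshold of 0.05. Without that block the median log2 fold change over every gene tested was -0.31.

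For Aldoc, astrocyte-like and neuronal-like CPM were 3158 and 62.7 in AiE0390m, 2391 and 220.0 in AiE0391h, 1444 and 109 in AiE0401h, 3889 and 111 in AiE0445h_3xC2 and 3450 and 101.2 in AiE0450h. They were 3414 and 168 in AiE0600m, 5446 and 51.5 in AiE0743m_3xC2, 5643 and 30.4 in CMV and 3216 and 76.0 in DLX2.0. The astrocyte-like value was higher in 9 of 9 vectors with no overlap, at 3561 ± 1330 and 103 ± 59.5 CPM (SD, n = 9 vectors), a log2 fold change of 5.36 ± 0.42 (SE, edgeR adjusted p = 9.83e-09). The call held without each of the 9 vectors and within both large library series (the start of the library names), at 6.86 in S40324 and 5.04 in S40326 on the log2 scale, with edgeR adjusted p of 4.82e-05 and 4.81e-09. Aldoc was also read in 11 of 50 oligodendrocyte-like nuclei. Over all 50 of them, with or without such a read, the astrocyte list summed to 113 CPM with 6 of its 10 markers at 0. Whether these Aldoc reads came from other cells was not tested.

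Eno2 was 0, 56.9 and 230 CPM (lowest, median and highest) in astrocyte-like nuclei and 251, 342 and 479 CPM in neuronal-like nuclei, lower in 9 of 9 vectors with no overlap. The means were 82.9 ± 74.9 and 351 ± 71.8 CPM (SD, n = 9), a log2 fold change of -2.53 ± 0.84 (SE, edgeR adjusted p = 0.04). Ldhb was 468, 709 and 1195 CPM in astrocyte-like nuclei and 158, 309 and 560 CPM in neuronal-like nuclei, higher in 8 of 9 vectors with overlapping ranges, a log2 fold change of 1.28 ± 0.43 (edgeR adjusted p = 0.0449). Eno2 lost its call without AiE0390m, AiE0391h, AiE0401h, AiE0445h_3xC2 or CMV, with edgeR adjusted p of 0.0612 to 0.0848. It was also lost in a joint fit of all classes, with classes set by marker scores, with equal numbers of nuclei and with at least 5 nuclei per class, with edgeR adjusted p of 0.164, 0.0696, 0.06 and 0.0612. Ldhb lost its call without AiE0390m, AiE0391h, AiE0445h_3xC2, AiE0450h, CMV or DLX2.0, with edgeR adjusted p of 0.0586 to 0.105, and with no filter and with equal numbers of nuclei, with edgeR adjusted p of 0.0891 and 0.152. Neither was called within a single library series.

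The other 7 enzymes did not pass the test. Gapdh averaged 542 ± 140 and 296 ± 106 CPM, higher in 8 of 9 vectors (edgeR adjusted p = 0.112), and Ldha 212 ± 139 and 86.8 ± 45.0 CPM (edgeR adjusted p = 0.195). Pfkp averaged 245 ± 155 and 393 ± 110 CPM, lower in 8 of 9 vectors (edgeR adjusted p = 0.445). Aldoa, Eno1, Hk1 and Pkm lay between -1.33 and 0.76 on the log2 scale with adjusted p of at least 0.259.

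Oligodendrocyte-like nuclei were compared with neuronal-like nuclei within 7 vectors. Of the 10 enzymes, 3 were lower and none was higher, against 43.6% of all 8107 genes called, 41.6% as lower and 2.04% as higher. In this fit the count of lower enzymes is therefore no larger than for genes at large, which had a median log2 fold change of -5.70. That median moved with the fit, to -1.01 without the vector block, -2.29 with equal numbers of nuclei and -2.96 in a joint fit of all classes. With equal numbers, 2 of 9 enzymes tested and 582 of 4852 genes were called lower. Hk1 was 0 in all 7 vectors in oligodendrocyte-like nuclei and 5.71, 42.7 and 91.0 CPM (lowest, median and highest) in neuronal-like nuclei, with no overlap (edgeR adjusted p = 0.000542). Pfkp was 206 CPM in AiE0140h and 0 in the other 6 vectors in oligodendrocyte-like nuclei, and 50.9, 329 and 572 CPM in neuronal-like nuclei (edgeR adjusted p = 8.9e-06). Eno2 had a median of 0 and a maximum of 575 CPM in oligodendrocyte-like nuclei and a median of 346 CPM in neuronal-like nuclei, ranges that overlapped (edgeR adjusted p = 0.00885). The direction was not the same in every vector. In AiE0410m Eno2 was 575 CPM in oligodendrocyte-like and 113 CPM in striatal projection neuron-like nuclei. In AiE0140h it was 342 CPM, against 163 to 385 CPM in the sums of the neuronal classes. Only 3 of the 50 oligodendrocyte-like nuclei held an Eno2 read. The Eno2 call was lost without AiE0447h, AiE0682h, AiE0779m or DLX2.0, with edgeR adjusted p of 0.0597 to 0.0616. Lowering the minimum to 500 genes raised the oligodendrocyte-like nuclei to 125 in place of 50, and the same 3 enzymes were called over 10 vectors, with edgeR adjusted p of 0.000151 for Hk1, 2.31e-05 for Pfkp and 0.000171 for Eno2. In that fit 3793 of all 8596 genes were called lower and 208 higher, so 3 lower enzymes of 10 are again no more than for genes at large. The Hk1 call was lost with at least 5 nuclei per class and within S40326, with edgeR adjusted p of 0.0632 and 0.079, and within S40324 no enzyme was called. Without the vector block, Hk1 alone remained called, with Pfkp at an edgeR adjusted p of 0.136 and Eno2 at 0.538. Gapdh averaged 454 ± 211 and 297 ± 71.2 CPM (SD, n = 7 vectors, edgeR adjusted p = 0.977) and Pkm 452 ± 366 and 395 ± 136 CPM (edgeR adjusted p = 0.606). Aldoc averaged 391.5 ± 431.7 and 82.1 ± 48.2 CPM and was higher in 4 of 7 vectors (edgeR adjusted p = 0.851).

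Only the DLX2.0 vector held at least 3 nuclei of both glial classes, with 9 astrocyte-like and 4 oligodendrocyte-like nuclei, so the values within it have no test. Aldoc was 3216 and 0 CPM, Ldhb 878 and 142 CPM, Pfkp 278 and 0 CPM and Eno2 144 and 0 CPM in astrocyte-like and oligodendrocyte-like nuclei. Pkm went the other way, at 110 CPM in astrocyte-like and 949 CPM in oligodendrocyte-like nuclei. Aldoa, at 543 and 411 CPM, and Gapdh, at 393 and 415 CPM, were closer. A joint fit over the 60 sums of all classes sets glial sums of mostly different vectors against each other. It called 4 of 10 enzymes higher in astrocyte-like than in oligodendrocyte-like nuclei and none lower, against 11.3% of 13764 genes called, 10.2% as higher and 1.11% as lower. They were Hk1 (edgeR adjusted p = 0.00193), Pfkp (5.56e-05), Ldhb (0.0174, log2 fold change 3.49 ± 1.02) and Eno1 (0.0459, 2.696 ± 0.93), while Aldoc was at 4.07 ± 1.61 (0.0879). With a minimum of 500 genes, 3 vectors held both classes, and there Aldoc alone was called, as higher (edgeR adjusted p = 0.0484). Of all 4537 genes tested there, 81 were called higher and 16 lower. The direction of Pkm turned in the joint fit, at 0.34 ± 0.81 on the log2 scale (edgeR adjusted p = 0.853), and was -0.23 ± 3.39 with 500 genes.

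GABAergic-like nuclei were compared with glutamatergic-like nuclei within 12 vectors, the same design. Pkm and Ldhb were higher and no enzyme was lower, against 3.16% of all 8943 genes called, 1.69% as higher and 1.48% as lower. Pkm was 209, 484 and 784 CPM in GABAergic-like nuclei and 52.2, 119 and 255 CPM in glutamatergic-like nuclei, higher in 12 of 12 vectors. Only the CMV vector's GABAergic-like value of 209 CPM lay below the highest glutamatergic-like one. The log2 fold change was 1.90 ± 0.34 (SE, edgeR adjusted p = 0.000936), called without each vector. With equal numbers of nuclei from both classes it was 1.59 with an edgeR adjusted p of 0.13. With runs of 8 nuclei as the unit, of which 4 held both classes, it was 3.14 with an edgeR adjusted p of 0.696.

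Ldhb was 271, 386 and 662 CPM in GABAergic-like nuclei and 0, 128 and 211 CPM in glutamatergic-like nuclei, with no overlap. Its log2 fold change was 1.88 ± 0.49 (SE, edgeR adjusted p = 0.029). The call was lost without any of AiE0078h, AiE0401h, AiE0452h, AiE0475m, AiE0682h, AiE0743m_3xC2 or hI56i, with an edgeR adjusted p of at most 0.0632. It was also lost in the joint fit, with marker scores, with equal numbers, within S40326 and by runs, with edgeR adjusted p of 0.128, 0.0621, 0.123, 0.101 and 1. Gapdh averaged 347 ± 74.2 and 160 ± 103.9 CPM and was higher in 11 of 12 vectors (edgeR adjusted p = 0.112). Aldoa averaged 946 ± 228 and 564 ± 225 CPM (edgeR adjusted p = 0.177), and without CMV its adjusted p was 0.0234. The other 6 enzymes had edgeR adjusted p-values of at least 0.794.

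Striatal projection neuron-like nuclei were compared with glutamatergic-like nuclei within 9 vectors. Pkm was higher and Pfkp lower, against 3.08% of 7595 genes called, 1.66% as higher and 1.42% as lower. Pkm was 186, 398 and 607 CPM in striatal projection neuron-like nuclei and 52.2, 127 and 255 CPM in glutamatergic-like nuclei, higher in 9 of 9 vectors, a log2 fold change of 1.61 ± 0.44 (SE, edgeR adjusted p = 0.0487). The call held without AiE0447h and was lost without any other of the 9 vectors (AiE0078h, AiE0140h, AiE0401h, AiE0450h, AiE0475m, AiE0682h, AiE0743m_3xC2 and hI56i), with edgeR adjusted p of 0.0548 to 0.153. Pfkp was 102, 182 and 313 CPM in striatal projection neuron-like nuclei and 213, 531 and 1025 CPM in glutamatergic-like nuclei, lower in 9 of 9 vectors, a log2 fold change of -1.49 ± 0.36 (SE, edgeR adjusted p = 0.0192). Its call was lost without AiE0078h, AiE0140h or AiE0743m_3xC2, with an edgeR adjusted p of 0.0524 to 0.0644. Neither call held in the joint fit, with marker scores, with equal numbers or within S40326. The Pkm call was also lost with RLE scaling, no filter, 500 genes and thinning, and the Pfkp call with at least 5 nuclei per class. Ldhb averaged 381 ± 260 and 107 ± 57 CPM (edgeR adjusted p = 0.412).

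Striatal projection neuron-like nuclei were also set against GABAergic-like nuclei within 12 vectors, where Pfkp alone was called, as lower, against 8.53% of 9210 genes called, 5.34% as lower and 3.19% as higher. Pfkp was 102, 204 and 313 CPM in striatal projection neuron-like nuclei and 257, 464 and 647 CPM in GABAergic-like nuclei, lower in 12 of 12 vectors. The log2 fold change was -1.11 ± 0.29 (SE, edgeR adjusted p = 0.0165), with a median over all genes of -0.62. The call held without each vector, but was lost with no filter, the joint fit, marker scores, equal numbers of nuclei, at least 5 nuclei per class, S40326 alone and without the Chodl cluster, with edgeR adjusted p of 0.0795, 0.433, 0.0934, 0.0833, 0.053, 0.103 and 0.099. The comparisons among neuronal classes share sums, so their values are not independent.

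**Figure D2:**
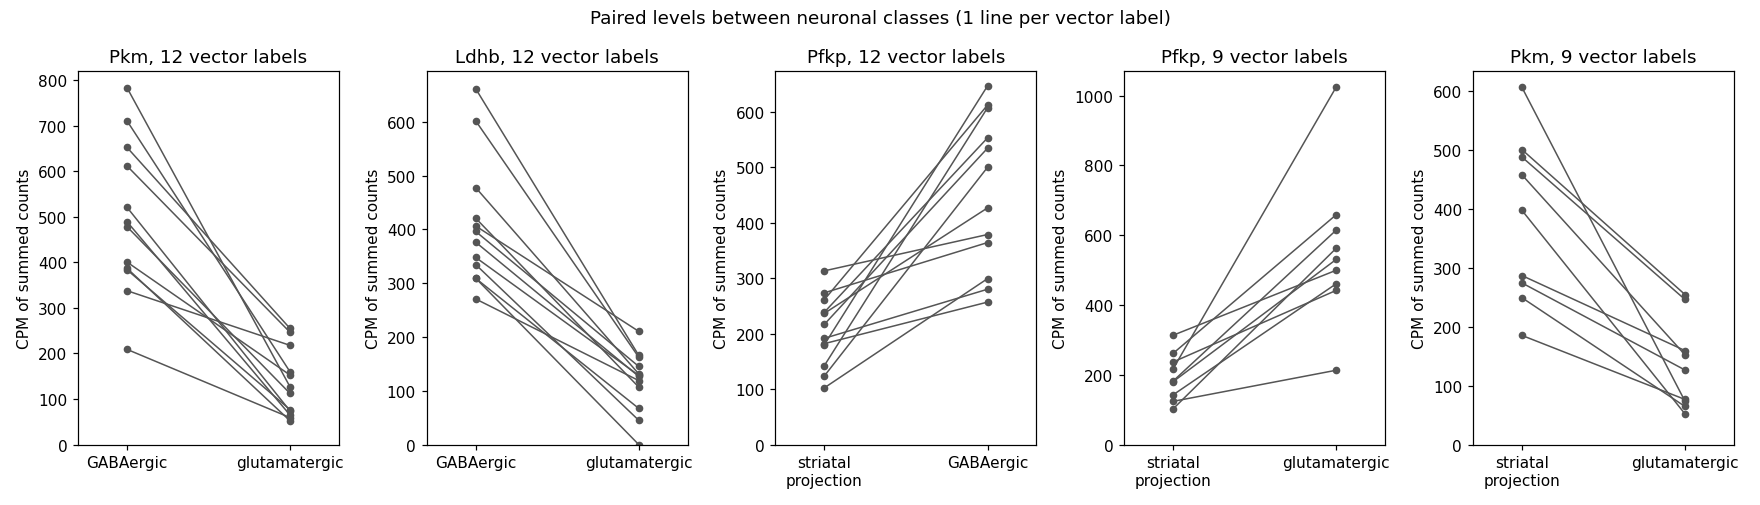
Enzymes called between neuronal classes (CPM of summed counts), with a line per vector label joining its sums of 2 classes. The 12 Pkm and the 12 Ldhb lines all go down from GABAergic-like to glutamatergic-like sums, and the 12 and 9 Pfkp lines all go up from striatal projection neuron-like sums.

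Among GABAergic clusters, 98 nuclei were Pvalb-like and 121 Sst-like, both interneuron subclasses, while 54 had no subclass name. Of the Sst-like nuclei, 100 came from a cluster with Grin3a but not Sst among its 10 leading genes. Naming by marker score per nucleus gave 133 Pvalb-like and 86 Sst-like nuclei instead. The 2 subclasses were compared within 13 vectors. No enzyme was called by edgeR, against 0.754% of 7562 genes (0.264% as higher and 0.489% as lower), while DESeq2 called 3 of 10 enzymes and 7.79% of all genes, and 3 enzymes had an unadjusted edgeR p under 0.05. Ldhb was 196, 599 and 1033 CPM in Pvalb-like nuclei and 25.9, 290 and 511 CPM in Sst-like nuclei, higher in 12 of 13 vectors (edgeR adjusted p = 0.181). Pfkp averaged 356 ± 137 and 624 ± 171 CPM, lower in 12 of 13 vectors (edgeR adjusted p = 0.127). Ldha had a median of 0 in Pvalb-like and 169 CPM in Sst-like nuclei (edgeR adjusted p = 0.179), and without AiE0600m its edgeR adjusted p was 0.0449.

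**Figure D3:**
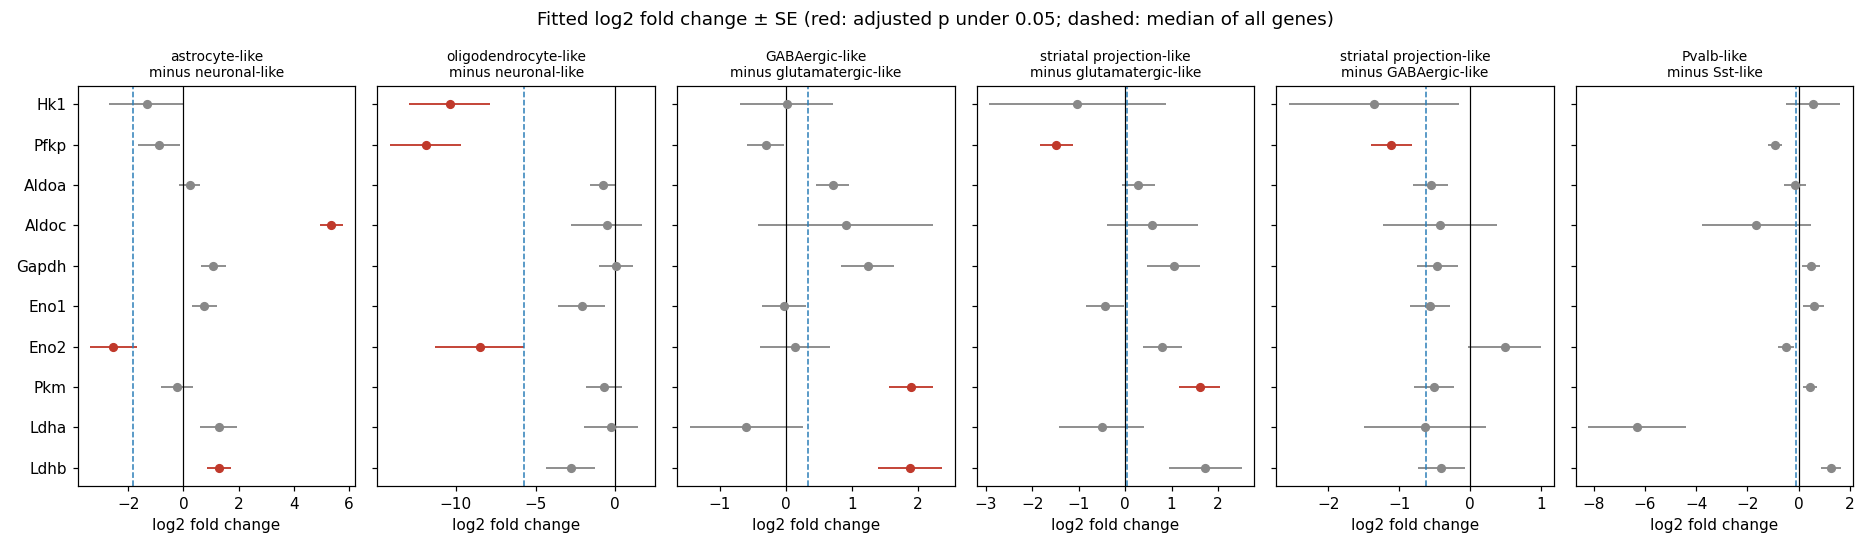
Log2 fold change of each enzyme in each comparison, with its standard error, red for an adjusted p under 0.05 and grey otherwise, and a dashed line at the median of all genes. The scale differs between panels: Aldoc in astrocyte-like nuclei stands at 5.36 and Pfkp in oligodendrocyte-like nuclei at -11.90, and where most or all sums of a class are 0, as for Pfkp and Hk1 there, the position depends on the prior count of the fit.

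The isozyme shares compare genes within a sum and were computed per exonic kilobase, in 18 tested shares and comparisons adjusted together. The size of a share depends on the annotated exon lengths of its 2 genes. Aldoc made 78.0 ± 4.75% of aldolase A and C in astrocyte-like nuclei and 10.6 ± 6.99% in neuronal-like nuclei (SD, n = 9), a difference of 67.5 points, higher in 9 of 9 vectors (exact two-sided sign-flip permutation p = 0.00391, the smallest that 9 vectors allow, adjusted 0.0141). Eno2 made 15.3 ± 10.3% of enolase 1 and 2 in astrocyte-like and 57.5 ± 8.60% in neuronal-like nuclei, lower in 9 of 9 vectors (exact permutation adjusted p = 0.0141). Ldhb made 87.4 ± 8.53% and 88.5 ± 7.30% of lactate dehydrogenase A and B in these classes, a difference of -1.10 points (exact permutation adjusted p = 0.923). Between neurons, Ldhb made 90.2 ± 7.12% in GABAergic-like and 63.1 ± 27.7% in glutamatergic-like nuclei, higher in 10 of 12 vectors (exact permutation adjusted p = 0.0141). It made 97.4 ± 4.20% in Pvalb-like and 71.3 ± 26.97% in Sst-like nuclei, higher in 12 of 13 vectors (exact permutation adjusted p = 0.0141). Eno2 made 71.1% of enolase in striatal projection neuron-like and 52.3% in glutamatergic-like nuclei, higher in 8 of 9 vectors (exact permutation adjusted p = 0.0201). It made 69.1% in striatal projection neuron-like and 50.7% in GABAergic-like nuclei, higher in 12 of 12 vectors (exact permutation adjusted p = 0.00879). Eno2 made 49.8% in Pvalb-like and 66.1% in Sst-like nuclei, lower in 12 of 13 vectors (exact permutation adjusted p = 0.0154). No share differed past the threshold between oligodendrocyte-like and neuronal-like nuclei (7 vectors, exact permutation adjusted p of at least 0.105).

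**Figure D4:**
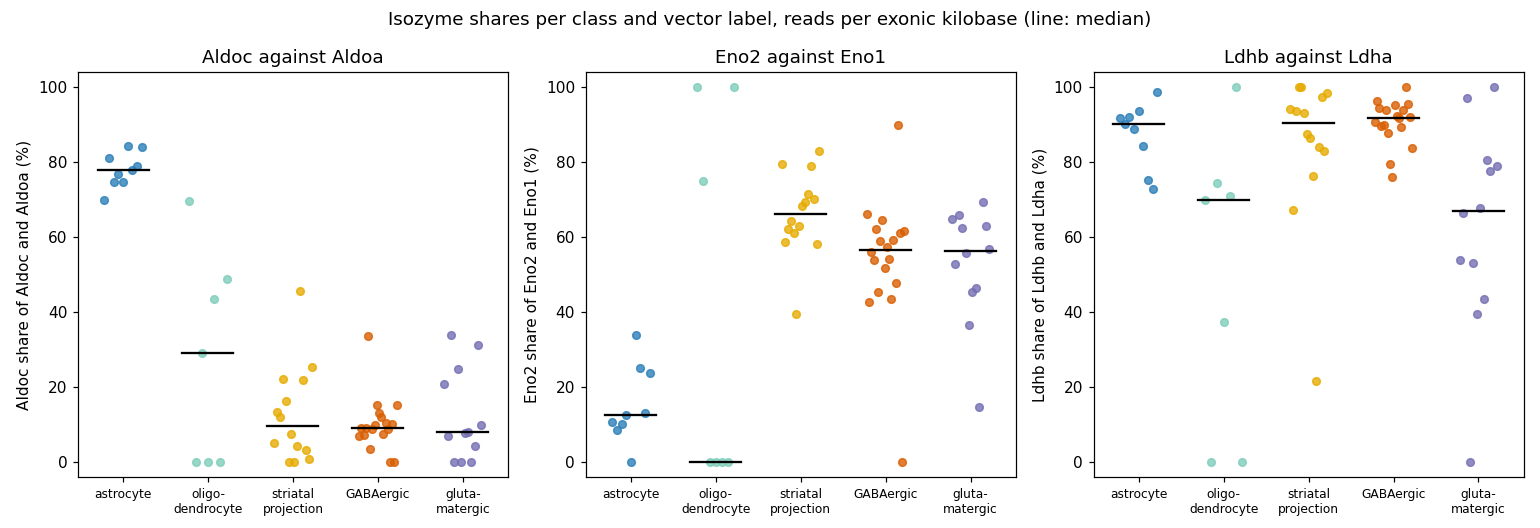
Share of each isozyme pair (percent per exonic kilobase) by class, one point per vector label and a line at the median. Aldoc shares average 78.0% in astrocyte-like nuclei, above every neuronal sum.

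Levels also varied between vectors, which hold different shares of the classes. Aldoc over all 40 nuclei was highest in AiE0390m, at 2730 CPM (exact Poisson 95% interval 2699 to 2762, counting error only), and in CMV, at 2521 CPM, and lowest in hSyn1, at 90.2 CPM. In nuclei with at least 1000 genes CMV lay above AiE0390m, at 2651 and 2539 CPM, and AiE0410m was lowest, at 8.09 CPM. Pfkp was highest in hSyn1, at 560 CPM, and lowest in AiE0410m, at 8.39 CPM, or 29.9 CPM in its nuclei with at least 1000 genes. Eno2 was highest in AiE0078h, at 546 CPM, and lowest in AiE0390m, at 109 CPM. Ldhb was highest in AiE0390m, at 653 CPM, and lowest in AiE0140h, at 162 CPM. Aldoa was highest in AiE0410m, at 1428 CPM, and lowest in hI56i, at 377 CPM. In nuclei with at least 1000 genes both ends changed, with Aldoa highest in AiE0779m, at 1206 CPM, and lowest in AiE0391h, at 502 CPM, while AiE0410m had 887 and hI56i 535 CPM. There was 1 sample per vector, so no test was made.

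**Figure D5:**
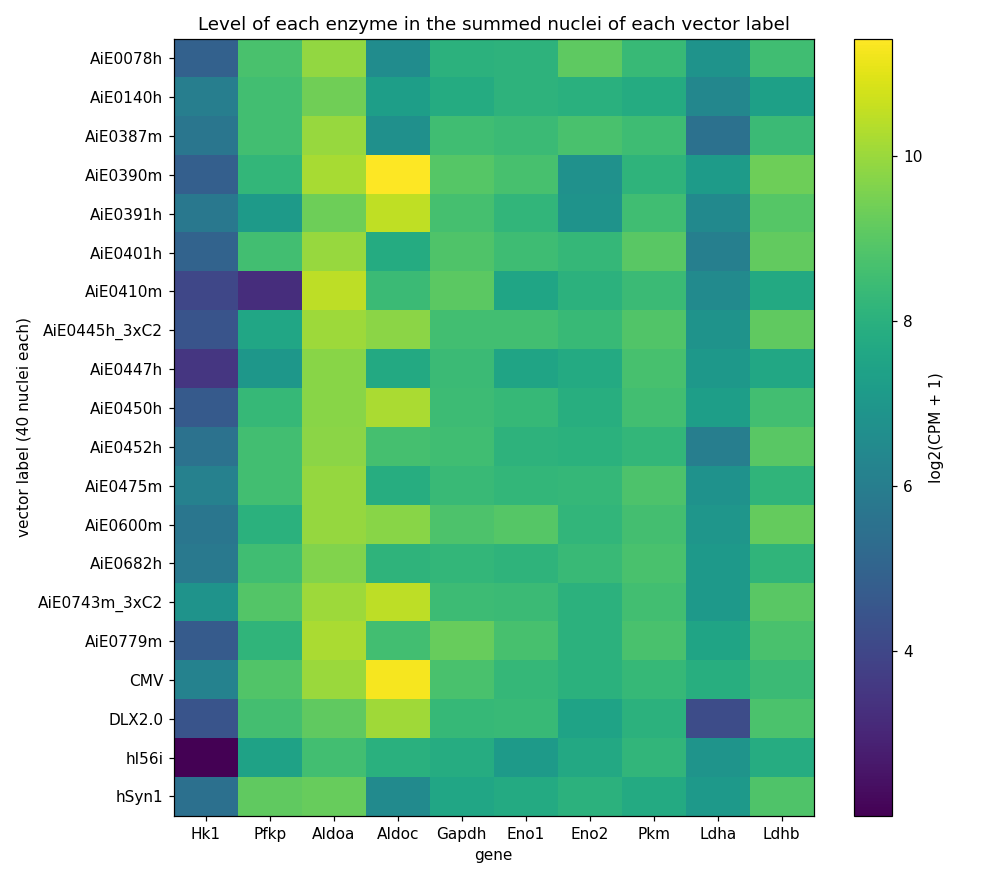
Level of each enzyme (log2(CPM + 1), colour) in the 40 nuclei summed for each vector label (rows). Over all 40 nuclei Aldoc is highest in AiE0390m and CMV, at 2730 and 2521 CPM.

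Over the 60 sums of class and vector, the genes whose log2(CPM + 1) followed each enzyme most closely were described by Pearson's r, with no p since the sums share libraries and depth. Aldoc was followed by Fbrsl1 (r = 0.72), Ndrg2, an astrocyte gene (r = 0.66), and Dhrs7 (r = 0.646). Pfkp was followed by Celf4 (r = 0.811), Nav2 (r = 0.802) and the AMPA receptor subunit Gria2 (r = 0.794). Eno2 was followed by Car11 (r = 0.745), Tspoap1 (r = 0.7) and Cyp46a1 (r = 0.681). Eno1 was followed by the malate dehydrogenase Mdh1 (r = 0.73), Psmd14 (r = 0.722) and Slc25a5 (r = 0.718). Pkm was followed by Gad2 (r = 0.568), which makes the transmitter GABA. Among the enzymes, Hk1 and Pfkp had an r of 0.648, and Gapdh and Eno2 one of -0.28.

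Of the other carbohydrate genes, 25 concern glycogen. In astrocyte-like nuclei 19 of these were tested, and 5 were higher and 1 lower than in neuronal-like nuclei, where 3.88% of all genes were called higher and 13.7% lower. Ppp1r3c, which targets phosphatase to glycogen, averaged 304.5 and 1.203 CPM (edgeR adjusted p = 1.45e-06), and Phka1, a subunit of phosphorylase kinase, 311 and 10.3 CPM (edgeR adjusted p = 0.000616). Of 10 glucose, lactate and pyruvate transport genes tested, 1 was higher and 4 were lower. The neuronal glucose transporter Slc2a3 averaged 2.46 and 109 CPM (edgeR adjusted p = 0.002). In oligodendrocyte-like nuclei, Taldo1 of the pentose phosphate path averaged 805 and 37.2 CPM, higher in 7 of 7 vectors (edgeR adjusted p = 0.00591), and Tpi1, triose phosphate isomerase, 39.3 and 281 CPM (edgeR adjusted p = 7.47e-05). Tpi1 was lower in 7 of 7 vectors, and its oligodendrocyte-like sums had a median of 0 and a maximum of 275 CPM. In GABAergic-like nuclei, Mdh1 averaged 1069 and 477 CPM against glutamatergic-like nuclei (edgeR adjusted p = 0.0295), a call lost without AiE0401h, AiE0475m, AiE0682h, AiE0743m_3xC2 or hSyn1. In striatal projection neuron-like nuclei, Bsg, a partner of lactate transporters, averaged 221 and 571 CPM against GABAergic-like nuclei (edgeR adjusted p = 0.00528). In astrocyte-like against neuronal-like nuclei, 1 of 11 other glycolysis enzymes, 1 of 11 pyruvate dehydrogenase and carboxylase genes, 1 of 7 pentose phosphate genes and 1 of 10 cytosolic NADH shuttle genes tested were lower, and none of 3 fructose bisphosphate regulators was called. In oligodendrocyte-like against neuronal-like nuclei, 4 of 12 glycogen, 4 of 9 other glycolysis, 4 of 9 transport, 5 of 11 pyruvate dehydrogenase and carboxylase, 1 of 3 fructose bisphosphate regulator, 1 of 6 pentose phosphate and 4 of 9 shuttle genes were lower, against 41.6% of all genes, so these counts are near the share of genes at large. In GABAergic-like against glutamatergic-like nuclei the called genes were Mdh1 and the glycogen gene Ugp2, both higher, against 1.69% of all genes. The Ugp2 call was lost without AiE0078h, AiE0447h, AiE0450h, AiE0452h, AiE0475m, AiE0682h, AiE0743m_3xC2 or hI56i. In striatal projection neuron-like against glutamatergic-like nuclei no gene of these lists was called. In striatal projection neuron-like against GABAergic-like nuclei, 2 of 9 transport genes, and 1 each of 13 glycogen, 8 other glycolysis, 4 fructose bisphosphate regulator, 7 pentose phosphate and 10 shuttle genes were lower, against 5.34% of all genes, and none of 11 pyruvate dehydrogenase and carboxylase genes was called. No gene of these lists was called between Pvalb-like and Sst-like nuclei.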

How the data were processed

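The deposited table holds the authors' raw counts per gene and nucleus, from reads of SMART-Seq v4 single-nucleus libraries; per the submitters' processing notes they used STAR 2.7.2a and build mm10. Of its columns, 1701 match no labelled nucleus and were not used. Nuclei had a median of 260170.5 counts (70 to 901264), and the 40 nuclei of a vector summed to 9467151 to 12192831 counts. CPM was computed from the counts. Symbols came from a table of gene identifiers and positions from GENCODE M21; 127 identifiers had no symbol.

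Nuclei with at least 1000 genes were clustered with scanpy 1.11.5 (2000 variable genes, 30 components, 15 neighbours, Leiden resolution 1) without the enzymes and other list genes. A class name needed 3 or more of its markers in 25% of a cluster's nuclei, and a marker among the 10 genes that led the cluster. The summed level of the striatal marker list is not reported here. The naming rule was revised after a first view of the clusters. No doublet caller was run, since each library holds 1 sorted nucleus.

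Counts were summed per vector and class (at least 3 nuclei) and tested with edgeR 4.0.16 (TMM, filterByExpr, vector as block because both sums come from the same vector label, Benjamini-Hochberg over all genes tested); DESeq2 1.42.0 was an alternative. A log2 fold change's SE is its size divided by the square root of F. Intervals are exact at 95% and cover counting error only, and floors are 3 counts. The analysis was tested on simulated data. For edgeR these had the same spread for every gene and no differences between vectors. They therefore do not show how the fits behave on the real sums. All 10 enzymes are named, and of each other list up to 3 called genes with the largest fold changes among those of at least 5 CPM were eligible. The enzymes, lists and tests were chosen with earlier results of these data known.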

Additional observations from a re-analysis of the deposited data

Results flagged for a closer look

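Of 60 groups of values screened, 12 held a value whose gap to its nearest neighbour was large for the range of the group. Chance alone would flag about 1 in 20 groups if their values were independent and evenly behaved. The groups here share nuclei and some hold values of 0, and their own rate was not tested. In astrocyte-like nuclei Eno2 was 0 in AiE0450h, Pfkp was 0 in AiE0600m and Ldha was 25.4 CPM in DLX2.0. Ldha was also low in the other classes of DLX2.0, at 0 in oligodendrocyte-like and 18.4 CPM in neuronal-like nuclei. Pfkp was 206 CPM in the oligodendrocyte-like nuclei of AiE0140h, all from a single nucleus, and 50.89 CPM in the neuronal-like nuclei of AiE0410m. In the comparison of striatal projection neuron-like with glutamatergic-like nuclei, Aldoc was 0 in AiE0447h, Gapdh 64.22 CPM in AiE0140h and Ldha 0 in AiE0401h in the striatal projection neuron-like nuclei. In the glutamatergic-like nuclei of that comparison Hk1 was 0 in hI56i and Ldhb 0 in AiE0447h.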

How the results depend on the processing

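Aldoc was higher in astrocyte-like than in neuronal-like nuclei, past the threshold, under every alternative run. The vectors pair the sums through their shared label. Without that replicate block, 1 enzyme was called between oligodendrocyte-like and neuronal-like nuclei (3 with it), and fold changes turned to 1.74 for Aldoc there, 0.0622 for Eno1 and -0.17 for Hk1 between GABAergic-like and glutamatergic-like nuclei, and 0.0496 for Aldoc between Pvalb-like and Sst-like nuclei. No other call of an enzyme was gained or lost without the block. The causes of the changes below were not tested.

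Counts over all genes moved with the setting as well, and the closing paragraph gives them for many settings. In astrocyte-like against neuronal-like nuclei DESeq2 called 716 of 10074 genes higher and 4410 lower, and the joint fit 882 of 13764 higher and 1004 lower. DESeq2 called 277 of 8107 higher and 5541 lower in oligodendrocyte-like against neuronal-like nuclei. It called 1000 of 8943 higher and 529 lower in GABAergic-like against glutamatergic-like nuclei. Counts of called enzymes moved as follows. Astrocyte-like against neuronal-like nuclei (3): 4 with DESeq2, which adds Ldha, 3 in the joint fit, with Gapdh and without Eno2, 2 with no filter, marker scores and at least 5 nuclei, and 1 with equal numbers of nuclei, with S40324 alone and with S40326 alone. Oligodendrocyte-like against neuronal-like (3): 4 with DESeq2, which adds Ldhb, 2 with equal numbers, at least 5 nuclei and S40326 alone, and 0 with S40324 alone. GABAergic-like against glutamatergic-like (2): 3 with DESeq2, which adds Gapdh, 1 with a joint fit, marker scores, S40326 alone and, for Aldoc, runs of 8 as the unit, and 0 with equal numbers. Striatal projection neuron-like against glutamatergic-like: 1 with RLE scaling, no filter, at least 500 genes, thinning to 150000 counts and at least 5 nuclei, and 0 with the joint fit, marker scores, equal numbers and S40326 alone. Striatal projection neuron-like against GABAergic-like: 0 with no filter, the joint fit, marker scores, equal numbers, at least 5 nuclei, S40326 alone and, chosen after seeing the data, without the Chodl cluster. Pvalb-like against Sst-like: 1 with no filter and 3 with DESeq2.

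Leaving out 1 vector at a time gave 1 to 3 calls for astrocyte-like against neuronal-like, 1 to 3 for GABAergic-like against glutamatergic-like, 0 to 2 for striatal projection neuron-like against glutamatergic-like and 0 to 1 for Pvalb-like against Sst-like nuclei. It spanned 0 on the log2 scale for Pkm in astrocyte-like against neuronal-like nuclei (-0.55 to 0.0155), for Aldoc (-2.92 to 0.70), Gapdh (-0.24 to 0.21) and Ldha (-0.76 to 0.28) in oligodendrocyte-like nuclei, and for Eno1 (-0.16 to 0.13), Eno2 (-0.0523 to 0.42) and Hk1 (-0.29 to 0.35) in GABAergic-like nuclei. For shares it gave -3.75 to 1.18 points for Ldhb in astrocyte-like against neuronal-like, -2.4 to 6.32 for Eno2 in GABAergic-like against glutamatergic-like, -4.58 to 2.74 for Aldoc in striatal projection neuron-like against glutamatergic-like, -7.2 to 0.14 for Ldhb in striatal projection neuron-like against GABAergic-like and -1.95 to 2.14 for Aldoc in Pvalb-like against Sst-like nuclei.

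Uncalled fold changes changed sign as follows. Astrocyte-like: Aldoa -0.11 with S40326 alone and Pkm 0.42 in the joint fit. Oligodendrocyte-like: Aldoc 2.11 in the joint fit, 0.87 with 500 genes, 2.696 with equal numbers, 1.296 with 5 nuclei and 2.05 with S40326; Gapdh -0.0213 with RLE, -0.0181 with no filter and -0.0215 with DESeq2, -0.18 with 500 genes, -0.20 with marker scores and -0.15 thinned; Ldha 0.23 joint, 0.20 with equal numbers and 0.24 with 5 nuclei; Pkm 0.077 joint and 0.0737 with S40324. GABAergic-like against glutamatergic-like: Eno1 0.0181 with no filter, 0.0477 joint, 0.15 with 5 nuclei, 0.65 by runs and 0.26 with S40326; Eno2 -0.21 with equal numbers and -0.85 by runs; Hk1 -0.0582 with RLE, -0.0741 with DESeq2, -0.52 with scores, -0.33 with equal numbers, -0.0504 thinned, -0.28 by runs, -0.40 without the Chodl cluster and -0.41 with S40326; Ldha 0.0004 joint; Pfkp 0.0408 with 5 nuclei, 0.41 by runs and 0.016 with S40326. Striatal projection neuron-like: Aldoa -0.0699 with S40326 and Ldha 0.0434 with scores and 0.0288 with 5 nuclei against glutamatergic-like, and Ldhb 0.0349 joint against GABAergic-like. Pvalb-like against Sst-like: Aldoa 0.12 with scores, 1.17 by runs, 0.18 without the Chodl cluster and 0.36 with S40326; Aldoc 4.36 with scores; Gapdh -0.52, Hk1 -1.70 and Pkm -0.48 with 500 genes; Hk1 -0.0302 with scores, -0.34 with 5 nuclei and -0.48 by runs.

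Shares taken as a mean over nuclei gave 0.47 points for Ldhb in astrocyte-like against neuronal-like, 0.23 for Aldoc and -3.83 for Eno2 in GABAergic-like against glutamatergic-like, and -11.91 for Eno2 in Pvalb-like against Sst-like nuclei, no longer past the threshold. With 500 genes, Aldoc gave -1.91 and -0.76 points in striatal projection neuron-like against glutamatergic-like and GABAergic-like nuclei, and Pvalb-like against Sst-like nuclei gave -6.1 for Aldoc and, no longer past the threshold, -5.48 for Eno2 and 12.91 for Ldhb, on 3 vectors. With 500 genes the name Pvalb-like passed to another cluster, of 21 nuclei led by Gpr83 and St18, while the cluster led by Prss23 stayed unnamed, so that setting compares other nuclei.

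The log2 ratio of astrocyte-like to oligodendrocyte-like nuclei, reported within DLX2.0 alone, was, in the joint fit over vectors, the fit over vectors with 500 genes, and the DLX2.0 ratio with 500 genes, equal numbers and thinning in that order, 1.23, 0.67, 0.72, -0.14 and 1.10 for Aldoa, 1.42, 1.23, 0.24, 0.14 and -0.41 for Gapdh, 0.34, -0.23, -2.79, -2.43 and -3.37 for Pkm and 3.49, 3.73, 1.08, 2.88 and 2.03 for Ldhb. For Eno1 it was 2.696 and 3.67 in the fits and 0.96 with thinning. The mean over nuclei moved vector levels to 103 for Hk1 in AiE0743m_3xC2, 540 for Pfkp in hSyn1, 1521 for Aldoa in AiE0410m, 2524 for Aldoc in AiE0390m, 571 for Gapdh in AiE0779m, 524 for Eno2 in AiE0078h, 409 for Pkm in AiE0401h, 191 for Ldha in CMV and 613 for Ldhb in AiE0390m (CPM). With at least 1000 genes they were 887 for Aldoa, 2539 for Aldoc, 499 for Gapdh and 249 for Ldha in the same vectors. Runs of 8 gave too few units outside GABAergic-like against glutamatergic-like and Pvalb-like against Sst-like nuclei, and S40324 too few between neuronal classes. Thinning left out 35 nuclei. Levels of a few reads in 50 oligodendrocyte-like nuclei are limited by depth and by that number.

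Over all genes, edgeR with the block called 391 higher and 1380 lower genes in astrocyte-like against neuronal-like nuclei, while DESeq2 called 716 and 4410, no block 409 and 393, equal numbers 316 and 539, S40324 116 and 32, and S40326 201 and 330; the joint fit called 882 and 1004. For oligodendrocyte-like against neuronal-like nuclei the counts were 165 and 3372 with the block, 277 and 5541 with DESeq2, 158 and 920 without it, 155 and 582 with equal numbers, 134 and 367 with 5 nuclei, 38 and 75 with S40324 and 106 and 245 with S40326. For GABAergic-like against glutamatergic-like nuclei they were 151 and 132, against 1000 and 529 with DESeq2, 289 and 195 with no filter, 323 and 162 in the joint fit, 48 and 120 with equal numbers, 11 and 6 by runs and 61 and 37 with S40326. For striatal projection neuron-like against glutamatergic-like nuclei they were 126 and 108, against 505 and 561 with DESeq2, 181 and 219 with no filter, 186 and 324 jointly, 73 and 57 with 5 nuclei, 70 and 130 with equal numbers and 24 and 30 with S40326. For striatal projection neuron-like against GABAergic-like nuclei they were 294 and 492, against 681 and 2098 with DESeq2, 495 and 918 with no filter, 365 and 907 jointly, 320 and 315 without the block and 188 and 194 with S40326. For Pvalb-like against Sst-like nuclei they were 20 and 37, against 239 and 350 with DESeq2, 40 and 115 with no filter, 13 and 20 without the block, 24 and 9 with scores, 15 and 19 with equal numbers, 9 and 16 with 5 nuclei, 0 and 5 by runs, 3 and 5 with S40326 and 11 and 26 without AiE0452h.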
